A study of Mus musculus with 16 samples.

Results

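Interferon-stimulated genes (ISGs) were followed in the seminal vesicles (SV) of mice exposed to diethylstilboestrol (DES), a synthetic oestrogen, in the first days of life. The 9 members (Stat2, Irf1, Irf7, Isg15, Ifit1, Ifit3, Gbp2, Usp18 and Rsad2) were taken from a written list of interferon response genes. No measured value enters the rule, although the list was drawn up with earlier results of these data known. They are 9 of the 31274 genes in the expression table, and all 9 passed the minimum for testing, a group mean above 1 FPKM, as did 15988 genes. FPKM counts sequenced fragments scaled to transcript length and library size.

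RNA-seq covered 16 SV samples of C57BL/6 mice at week 5, 4 in each of 4 groups. From day 1 (birth) to day 5, each pup was injected under the skin daily with 2 µg DES in corn oil, or with corn oil alone (vehicle, veh). WT-veh and WT-DES were wild-type (WT) mice, and αERKO-veh and αERKO-DES were mice lacking oestrogen receptor α (ERα), the product of Esr1. WT pups came from bought dams and αERKO pups from matings of heterozygous mice, so the genotypes were not described as littermates. RNA of the other groups came from single mice, but that of WT-DES mice is described as 3 pools of several mice, whereas 4 WT-DES samples were sequenced. The 4 WT-DES samples may therefore not be 4 separate pools, which bears on every SD of that group and on every p-value. For each gene the test used 1 spread, estimated over the samples of all 4 groups, so the spread within WT-DES enters every comparison. The p-values measure only that spread. Corn oil was given to every group. SV of DES-exposed WT mice were compared with vehicle to ask what neonatal DES changed, and αERKO mice were used to ask which changes need ERα.

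Interferons are secreted proteins that cells release on sensing viral or other foreign nucleic acid, or, in the case of interferon-γ (Ifng), that activated T and natural killer (NK) cells release. Type I interferons act through the receptor Ifnar1 and Ifnar2, the kinases Jak1 and Tyk2 and a complex with Stat2 and Irf9 that binds the interferon-stimulated response element (ISRE), whereas interferon-γ acts through Ifngr1 and Ifngr2, Jak1 and Jak2, and leads to binding at the gamma-activated site (GAS). Both routes raise overlapping sets of genes, among them factors that amplify the response (Irf1, Irf7, Stat2), the ubiquitin-like modifier Isg15 and its protease Usp18, RNA-binding and metabolic antiviral proteins (Ifit1, Ifit3, Rsad2) and guanylate-binding GTPases (Gbp2).

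The start-site regions of the members are shown because they hold, or lack, the letters through which these routes act. The RefSeq promoter windows on GRCm38.p6 (250 bases before to 50 after a gene's start) gave a window for 8 of the 9 members. The ISRE core, GAAANNGAAA, and the GAS core, TTCNNNGAA, were searched on both strands, and the ISRE cores below, apart from those of Isg15, are on the strand opposite to the gene. Capitals mark the cores, and only bases before the RefSeq start are printed, 5′ to 3′ on the strand of the gene.
Gbp2, chr3:142620584-142620633, plus strand: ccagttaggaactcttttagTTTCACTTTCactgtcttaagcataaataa
Ifit1, chr19:34640765-34640833, plus strand: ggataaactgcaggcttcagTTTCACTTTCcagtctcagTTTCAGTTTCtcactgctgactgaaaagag
Ifit3, chr19:34583353-34583436, plus strand: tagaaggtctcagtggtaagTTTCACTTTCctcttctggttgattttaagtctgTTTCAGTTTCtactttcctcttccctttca
Isg15, chr4:156200855-156200916, minus strand: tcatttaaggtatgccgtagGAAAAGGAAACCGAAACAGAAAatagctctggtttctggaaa
Rsad2, chr12:26456543-26456592, minus strand: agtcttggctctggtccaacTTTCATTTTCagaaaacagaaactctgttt
Stat2, chr10:128270256-128270305, plus strand: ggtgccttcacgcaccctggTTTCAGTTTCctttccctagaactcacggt
Irf1, chr11:53769904-53769952, plus strand: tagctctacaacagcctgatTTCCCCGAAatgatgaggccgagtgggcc

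An ISRE core lay in the window of 6 of the 8 members with a window (Stat2, Isg15, Ifit1, Ifit3, Gbp2 and Rsad2), against 3.99% of the 27025 genes with a window. The capitals of Isg15 are 3 overlapping cores, and Ifit1 and Ifit3 each held 2 separate cores. The first base of the core lay 59 bases before the RefSeq start site of Gbp2, 120 before that of Rsad2 and 222 before that of Stat2. Irf1 held a GAS core 90 bases before the start of 1 of its 2 windows and no ISRE core. A GAS core occurred in 9.55% of genes. Neither core was in the window of Irf7. A match is a description of letters, and its absence says nothing about binding elsewhere. Of the 10 interferon GTPase genes outside the members with a window, 9 held the ISRE core and 6 the GAS core. Of 7 interferon-γ target genes, 1 held each core, of 23 antiviral effectors 8 held the ISRE core and 9 the GAS core, and of 12 ligand genes 6 held each. In the other 6 roles of the pathway, 4 of 33 genes held the ISRE core and 6 the GAS core.

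By GENCODE M21 on the same build (GRCm38), all 9 members are protein-coding genes. Stat2 lies on chromosome 10 (128270559 to 128292849, plus strand), Irf1 on 11 (53770014 to 53778374, plus), Irf7 on 7 (141262706 to 141266481, minus) and Isg15 on 4 (156199424 to 156200818, minus). Ifit1 (34640871 to 34650009, plus) and Ifit3 (34583531 to 34588731, plus) are neighbours on chromosome 19. Gbp2 lies on 3 (142620602 to 142638008, plus), Usp18 on 6 (121245906 to 121270917, plus) and Rsad2 on 12 (26442746 to 26456452, minus). The GENCODE start of Gbp2 is 61 bases upstream of its RefSeq start, so its ISRE core falls inside the GENCODE gene. Irf1, Irf7, Gbp2 and Usp18 each overlap another annotated gene on the opposite strand (Gm17334, Phrf1, Mir6381 and Gm44148), and whether strand was used in computing FPKM is not given in the sources used here, so reads of such pairs may not be separable. Ifit3 is the member with the most shared sequence. In its longest transcript, 51.2% of the stretches of 50 nt also occur in the copy Ifit3b, whereas the share was 7.13% for Ifit1, 3.96% for Isg15, 2.07% for Gbp2 and 0 for the other 5 members. The value of Ifit3 is therefore uncertain as to which copy it counts.

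Every αERKO sample listed less Esr1 than every WT sample. Esr1, the gene disrupted in αERKO, ranged from 2.81 to 4.55 FPKM (WT-veh), from 8.74 to 19.6 (WT-DES), from 1.30 to 1.75 (αERKO-veh) and from 0.91 to 1.64 (αERKO-DES). The SV secretory genes identify the tissue. With vehicle, their sum over 7 markers reached 46166 to 54055 in WT SV and 27578 to 43508 in αERKO SV. After DES it reached 30535 to 57795 in αERKO SV but 2372 to 7708 in WT SV. All 7 were called lower in WT-DES than WT-veh, as were 23.9% of all tested genes. FPKM summed over all genes came to 590446 to 652708 (WT-veh) and 375207 to 437619 (WT-DES), and the depth of the libraries is not known from FPKM. Within WT-DES, sample 1 stood apart by its neutrophil markers (summed FPKM 838.1, against 94.9 to 191.3 in the other 3 samples) and smooth muscle markers (2938 against 734.8 to 1119). Values without a WT-DES sample are given where its omission changes a call.

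In WT-veh SV every member was expressed, at FPKM between 2.12 (Rsad2) and 25.2 (Isg15) in single samples. Ordered by mean FPKM, which is scaled to transcript length, the members were Irf1 (23.1 ± 1.48 SD, n = 4), Stat2 (23.0 ± 1.99), Isg15 (20.5 ± 3.99), Usp18 (17.4 ± 1.80), Irf7 (16.02 ± 2.71), Gbp2 (6.62 ± 0.853), Ifit3 (6.46 ± 1.49), Ifit1 (4.84 ± 0.680) and Rsad2 (2.67 ± 0.441). Neighbours in this order overlapped between samples, except that every sample of Irf7 exceeded every sample of Gbp2 and every sample of Ifit1 exceeded every sample of Rsad2. The order was different in WT-DES SV, where Gbp2 was highest (108 ± 45.3), followed by Irf1 (83.8 ± 28.3), Irf7 (57.9 ± 32.7), Isg15 (50.01 ± 28.8), Ifit3 (40.9 ± 25.9), Stat2 (31.2 ± 9.25), Ifit1 (19.4 ± 13.6), Usp18 (17.3 ± 9.08) and Rsad2 (8.16 ± 5.05). All neighbours in the WT-DES order overlapped between samples. The SD within WT-DES exceeded that of WT-veh for each of the 9 members.

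**Figure D1:**
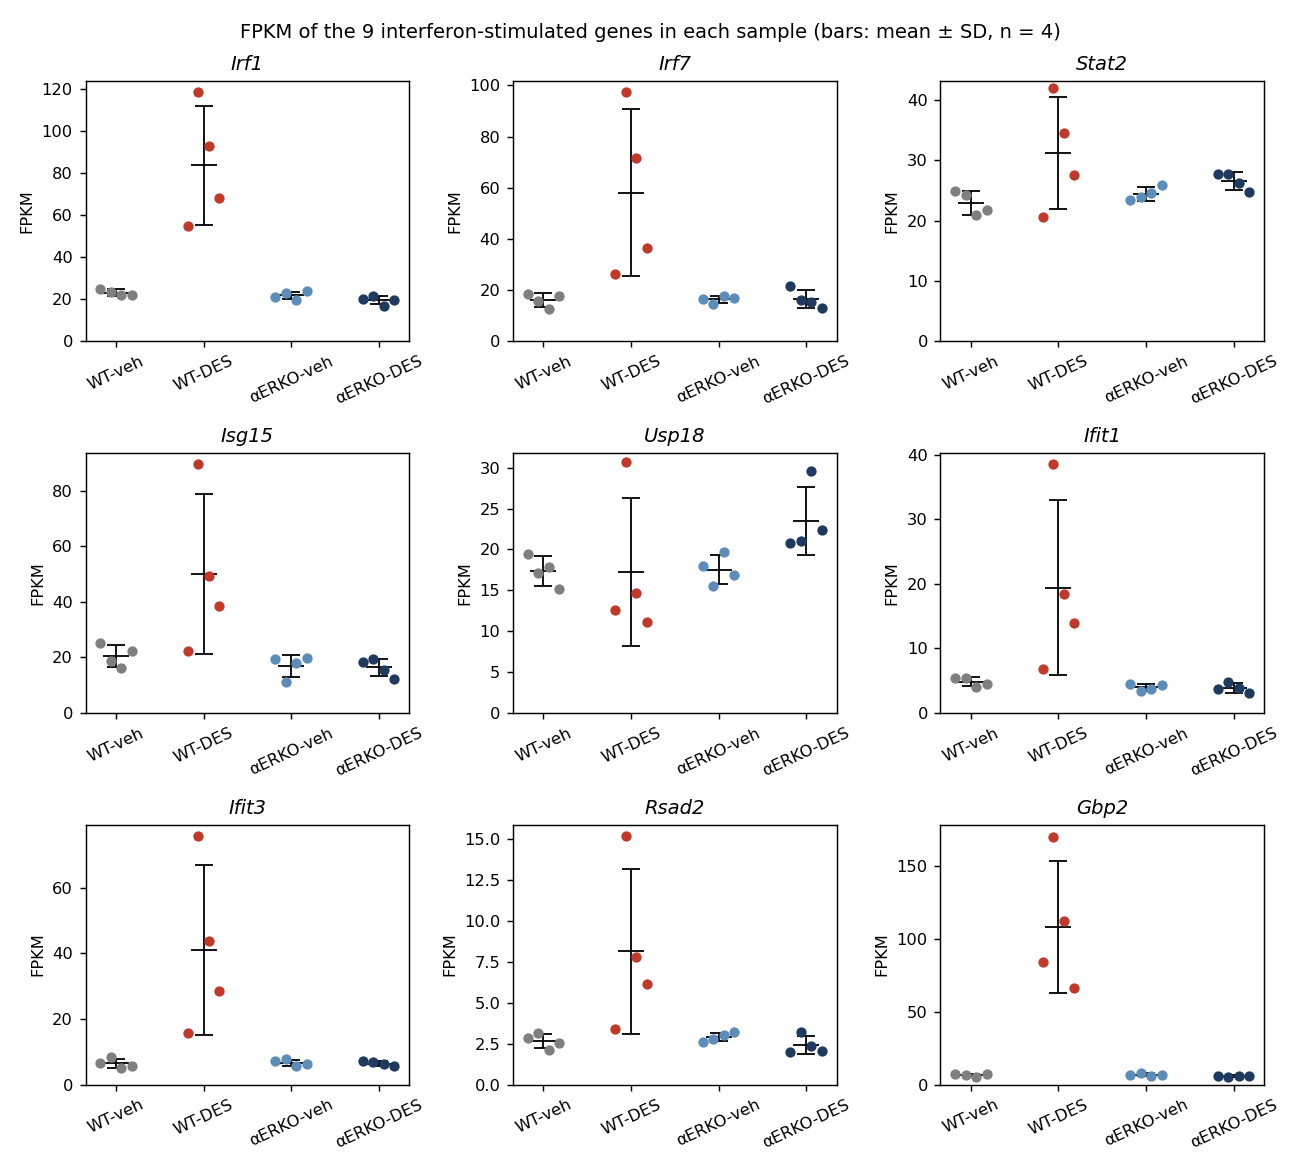
FPKM (y axis) of each member in the 4 samples of each group (points, samples 1 to 4 from left to right), with the mean and SD (n = 4) as black bars. WT-DES stands above the other groups for Gbp2, Irf1, Irf7, Ifit1, Ifit3 and Rsad2 in every sample, while Stat2, Isg15 and Usp18 have at least 1 WT-DES sample that does not exceed every WT-veh sample.

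Neonatal DES was followed by higher expression of 7 of the 9 members in WT SV at week 5, and of none in αERKO SV. Gbp2, a guanylate-binding GTPase, rose most, to 16.3 times the WT-veh mean, and Ifit3 rose 6.33-fold. The RNA-binding protein gene Ifit1 rose 4.01-fold, the transcription factor genes Irf1 and Irf7 each 3.62-fold, Rsad2 3.06-fold and Isg15 2.44-fold. Stat2 and Usp18 did not pass the thresholds. Calls needed an adjusted p no higher than 0.05 from limma on log2(FPKM + 1), group means that differed 1.5-fold or more, and 1 of these means above 1 FPKM. By these rules 28.9% of all tested genes were called higher in WT-DES than WT-veh and 23.9% lower, so a call in this comparison is common by itself. The median log2 change of the members was 1.57, against −0.01 for all tested genes. In bulk tissue, more or fewer cells of a type and more or less RNA per cell cannot be told apart.

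Among the transcription factors, Irf1 activates genes downstream of interferon-γ. Its FPKM was 25.03, 23.5, 21.8 and 22.1 in WT-veh samples 1 to 4 and 54.7, 118.9, 93.1 and 68.4 in WT-DES samples 1 to 4. The groups did not overlap, and the lowest WT-DES sample was sample 1. The log2 change was 1.75 (SE 0.172, adjusted p = 3.71e-07). Irf7, which drives the later wave of type I interferon, was at 18.3, 15.6, 12.4 and 17.8 in WT-veh and at 26.3, 97.5, 71.5 and 36.6 in WT-DES. Again no WT-DES sample reached down to the WT-veh range, but samples 1 and 4 stayed far below samples 2 and 3. Its log2 change was 1.63 (SE 0.30, adjusted p = 0.00018).

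Stat2, a subunit of the complex that carries the type I signal to the nucleus, was at 24.99, 24.3, 20.9 and 21.7 in WT-veh and at 20.6, 42.1, 34.6 and 27.6 in WT-DES. WT-DES sample 1 lay below all WT-veh samples and the other 3 lay above them. The log2 difference was 0.38 (SE 0.151, adjusted p = 0.0313), and with a ratio of 1.36 it missed the fold threshold. The call turned with the settings. Stat2 was called higher without WT-DES sample 1 (log2 0.56, adjusted p = 0.000313), with quantile normalization (0.62) and after scaling samples to equal totals without the 20 most abundant genes (0.80), a scaling that moved the median of all tested genes by 0.38.

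Isg15 encodes a ubiquitin-like protein that is attached to other proteins, and Usp18 the protease that removes it and also damps the type I receptor. Isg15 was at 25.2, 18.6, 16.1 and 22.1 in WT-veh and at 22.3, 89.9, 49.4 and 38.5 in WT-DES. WT-DES sample 1 fell within the WT-veh range, and samples 2 to 4 were above it. The log2 change was 1.09 (SE 0.312, adjusted p = 0.00531). Usp18 was at 19.4, 17.1, 17.8 and 15.1 in WT-veh and at 12.6, 30.7, 14.7 and 11.1 in WT-DES. WT-DES sample 2 exceeded every WT-veh sample, whereas samples 1, 3 and 4 lay below all of them. The log2 difference was −0.11 (95% interval −0.59 to 0.37, adjusted p = 0.659), and it was 0.30 after scaling to equal totals without the 20 most abundant genes. Without WT-DES sample 2 it was −0.42 (adjusted p = 0.0106) with a ratio short of the fold threshold. Thus the modifier rose in WT-DES while no rise was called for its protease, and a test of the difference between these 2 genes was not run.

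Of the antiviral effectors, Ifit1 binds foreign RNA lacking the host cap modification. It was at 5.36, 5.45, 4.03 and 4.54 in WT-veh and at 6.84, 38.5, 18.3 and 13.9 in WT-DES. Sample 1 was close to the WT-veh samples and sample 2 far above the others. The log2 change was 1.57 (SE 0.327, adjusted p = 0.00051). Ifit3, which binds Ifit1-type proteins, was at 6.65, 8.46, 5.02 and 5.72 in WT-veh and at 15.6, 75.7, 43.9 and 28.4 in WT-DES. The groups did not overlap, with a log2 change of 2.29 (SE 0.322, adjusted p = 1.36e-05). The table lists the copy Ifit3b under its older symbol I830012O16Rik, named here after its values were seen, at 14.6 ± 10.3 in WT-DES and 2.10 ± 0.411 in WT-veh (SD, n = 4). Rsad2 encodes viperin, an enzyme that makes a chain-terminating nucleotide. It was at 2.86, 3.15, 2.12 and 2.55 in WT-veh and at 3.42, 15.2, 7.82 and 6.18 in WT-DES, without overlap but with sample 1 just above the WT-veh range. The log2 change was 1.17 (SE 0.272, adjusted p = 0.00125). Since the log2 scale adds 1 to each FPKM, it understates the change of Rsad2, the member at the lowest level.

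Gbp2 belongs to a family of interferon-γ-induced GTPases that attack vacuoles of intracellular pathogens. It was at 7.15, 6.67, 5.40 and 7.26 in WT-veh and at 84.0, 169.9, 112.0 and 66.3 in WT-DES. Every WT-DES sample was several times above the highest WT-veh sample. The log2 change was 3.76 (SE 0.207, adjusted p = 1.65e-09). Over the whole list, every WT-DES sample exceeded every WT-veh sample for 6 of the 9 members (not for Stat2, Isg15 and Usp18), a pattern that 32.7% of all tested genes showed. The 7 members called higher kept that call in each of the 12 other settings and each of the 16 fits without 1 sample. Over the fits without 1 sample the log2 change of Gbp2 ran from 3.51 to 3.96 and that of Isg15 from 0.76 to 1.41, and over the other settings they reached 4.17 and 1.52.

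In αERKO SV, 0 of the 9 members was called after DES by limma, and 0 had an unadjusted p of 0.05 or less. Of all tested genes, 1.49% were called in either direction and 25.3% had such an unadjusted p. Gbp2 was at 6.60, 7.98, 5.59 and 6.91 in αERKO-veh samples 1 to 4 and at 6.23, 5.29, 6.04 and 5.94 in αERKO-DES samples 1 to 4. The groups overlapped, and the log2 difference was −0.17 (95% interval −0.61 to 0.27). Irf1 was at 21.1, 22.7, 19.4 and 23.7 in αERKO-veh and at 20.2, 21.5, 16.8 and 19.4 in αERKO-DES, with a log2 difference of −0.15 (−0.52 to 0.22). The intervals of Ifit3 (−0.74 to 0.63), Ifit1 (−0.74 to 0.66), Irf7 (−0.65 to 0.63) and Isg15 (−0.70 to 0.63) leave room for changes of more than 1.5-fold in either direction. They rest on the spread estimated over all 4 groups, so the SE of Ifit1 was 0.327 in both genotypes. In FPKM, the SD of Ifit1 was 13.6 in WT-DES, against 0.498 in αERKO-veh and 0.716 in αERKO-DES. Small effects were not detectable in this fit, and these intervals do not show what the αERKO samples alone could detect. Rsad2 differed by −0.21 (−0.79 to 0.37) and Stat2 by 0.12 (−0.20 to 0.44).

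Usp18 was the member furthest from 0 in αERKO. It was at 18, 15.5, 19.7 and 16.9 in αERKO-veh and at 20.8, 21.1, 29.6 and 22.4 in αERKO-DES. Every αERKO-DES sample was above every αERKO-veh sample, with sample 3 the highest. The log2 difference was 0.39 (95% interval −0.09 to 0.87) and did not pass (adjusted p = 0.287). In the 12 other settings the adjusted p from limma ran from 0.0488 to 0.542. Usp18 was called in none of them, so where this p passed 0.05 the fold threshold was missed.

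The change with DES differed between the genotypes for the same 7 members that were called in WT. The test was the interaction, the WT log2 change minus the αERKO log2 change, for which 29.6% of all tested genes were called higher in WT and 26.9% lower. It was 3.93 for Gbp2 (SE 0.293, adjusted p = 5.87e-08), 2.35 for Ifit3 (adjusted p = 0.000324), 1.91 for Irf1 (7.56e-06), 1.64 for Irf7 (0.00305), 1.61 for Ifit1 (0.00609), 1.38 for Rsad2 (0.00504) and 1.13 for Isg15 (0.0321). Isg15 was the weakest of these calls. It was lost in 9 of the 16 fits without 1 sample, with adjusted p between 0.0509 and 0.0644. These were the fits without WT-veh 2 or 3, WT-DES 2 or 3, αERKO-veh 1, 3 or 4, or αERKO-DES 3 or 4, with a value of 0.80 without WT-DES 2 and of 1.08 without WT-DES 3. Rsad2 was lost with quantile normalization (0.89, adjusted p = 0.088). No difference was called for Stat2 (0.27, 95% interval −0.19 to 0.72), which was called at 0.81 after scaling to equal totals without the 20 most abundant genes, a scaling that shifted the median of this contrast by 0.49. Usp18 was at −0.50 (−1.18 to 0.17) and at 0.03 after that scaling. Without WT-DES sample 2, the difference of Usp18 was called in the opposite direction to the other members (−0.81, adjusted p = 0.00108).

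**Figure D2:**
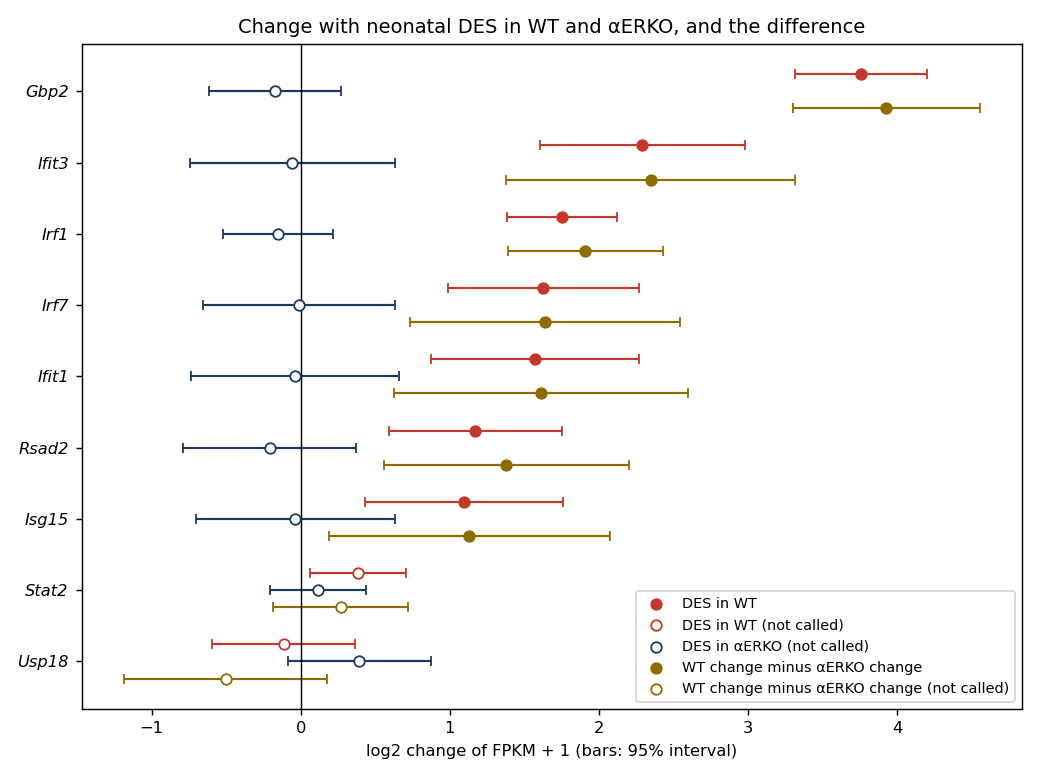
Log2 change of FPKM + 1 (x axis) after DES in WT (red) and αERKO (blue), and the difference between them (ochre), for each member, with 95% intervals and open points where not called. The WT values run from −0.11 (Usp18) to 3.76 (Gbp2), while all αERKO values lie between −0.21 and 0.39 with intervals that include 0.

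Directly compared, 7 members were lower in αERKO-DES than in WT-DES, a direction in which 29.6% of all tested genes were called, and 23.7% were called higher. Gbp2 was lower by a log2 of −3.90 (adjusted p = 6.19e-10) and Rsad2, the smallest called difference on the log2(FPKM + 1) scale, by −1.28 (adjusted p = 0.000582). Stat2 did not pass (−0.18, adjusted p = 0.298), but was called lower after scaling to equal totals without the 20 most abundant genes (−0.55, adjusted p = 0.0106), a scaling that shifted the median of this contrast by −0.33. Usp18 was at 0.52 (adjusted p = 0.0494), with a ratio of 1.36 that missed the fold threshold, and without WT-DES sample 2 it was called higher in αERKO-DES (0.82, adjusted p = 6.18e-05). This comparison shares the WT-DES samples with the one above, so it is not a separate measurement of WT-DES.

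Loss of ERα without DES did not move the members past the thresholds. In αERKO-veh against WT-veh 0 of 9 members was called by limma, and 0 had an unadjusted p of 0.05 or less, while 7.12% of all tested genes were called and 38.9% had such a p. The log2 differences lay between −0.27 (Isg15, 95% interval −0.93 to 0.40) and 0.10 (Rsad2, −0.48 to 0.68). In αERKO-DES against WT-veh, 0 of 9 was called by limma, again with 0 at an unadjusted p of 0.05 or less, against 3.18% of all tested genes called and 26.4% with such a p. Values lay between −0.30 (Isg15, −0.97 to 0.36) and 0.40 (Usp18, −0.08 to 0.88). These comparisons share the WT-veh samples with the comparison of WT-DES.

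The 4 WT-DES samples differed in their levels, and the members did so together. WT-DES sample 2 was the highest for 9 of 9 members. The order was sample 2, then 3, then 4, then 1 for 7 of the 9, the exceptions being Gbp2 and Usp18, in which sample 4 was lowest. Among all tested genes, 8.48% had this order and 22% had sample 2 highest, and among genes called higher in WT-DES the shares were 15.3% and 34.1%. As folds over the WT-veh mean, Ifit3 stood at 2.42, 11.7, 6.79 and 4.39 in WT-DES samples 1 to 4, and Irf7 at 1.64, 6.08, 4.46 and 2.28. Ifit1 stood at 1.41, 7.95, 3.79 and 2.88 and Isg15 at 1.09, 4.38, 2.41 and 1.88. Gbp2 had folds of 12.7, 25.7, 16.9 and 10.01, so that sample 1, with nearly unmoved Isg15, still held a Gbp2 level far above vehicle. This was not particular to Gbp2. In sample 1 the pathway genes Zbp1, Cxcl9 and Ifi47, named after their values were seen, were at 22.3, 18.05 and 32.2 FPKM, against WT-veh means of 1.97, 1.48 and 4.97. Deviations of the 16 samples from their group means, which hold no group difference, correlated between members at r of 0.59 to 0.97 (36 pairs, median 0.85), values that share libraries and scaling and carry no test. WT-DES samples deviated most, with an SD of Ifit3 of 25.9 FPKM against 1.49 in WT-veh, 0.897 in αERKO-veh and 0.663 in αERKO-DES. These r values therefore rest largely on WT-DES and do not show how members varied within the other groups.

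Markers of immune cells differed between the same samples. Some markers passed the FPKM minimum through WT-DES alone and so had to differ (2 of 6 for T cells, 3 of 5 for NK cells, 4 of 4 for B cells, 3 of 4 for neutrophils and 2 of 5 for plasmacytoid dendritic cells), so these lists are given by their sums. The 6 T cell markers (Cd3d, Cd3e, Cd3g, Cd4, Cd8a and Lck) summed to 7.54 to 13.6 in WT-veh and, in WT-DES samples 1 to 4, to 23.1, 112.4, 104.5 and 31.5. The NK cell list was at 7.84 to 12.7 in WT-veh and at 18.1, 74.7, 62.5 and 23.3 in WT-DES samples 1 to 4. The B cell list was at 0.96 to 1.48 and at 4.03, 31.7, 15.9 and 6.25. These lists have the same sample order as the 7 members with the order 2, 3, 4, 1. Those 7 leave out Gbp2 and Usp18 and include Stat2, which was not called. The macrophage list, with 4 of 5 higher (against 28.9% of all tested genes), did not have this order. It summed to 32.9 to 48.6 with vehicle and to 124.0, 150.5, 160.2 and 105.9 in WT-DES samples 1 to 4, with sample 3 highest and sample 4 lowest. Neutrophil markers went the other way within WT-DES, with sums over the 4 found markers of 838.1, 94.9, 98.3 and 191.3 in samples 1 to 4, against 1.81 to 3.77 in WT-veh.

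In αERKO SV the T cell list was at 6.48 to 7.89 with vehicle and 5.81 to 9.11 with DES, the NK cell list at 4.89 to 6.43 and 5.04 to 8.08, the B cell list at 0.44 to 1.24 and 0.54 to 0.70, the macrophage list at 32.9 to 42.0 and 31.9 to 33.9, and the neutrophil list at 1.10 to 1.78 and 0.85 to 1.39. None of their markers was called higher after DES there, and no list had a marker at 0 in all samples of a group. Markers that passed the minimum through WT-DES alone had αERKO means of at most 1 FPKM, too low to be called there. The plasmacytoid dendritic cell list summed to 683.1, 475.6, 373.9 and 452.8 in WT-DES samples 1 to 4, highest in sample 1, against 138.1 to 202.5 (WT-veh), 102.7 to 143.6 (αERKO-veh) and 108.5 to 177.3 (αERKO-DES). Bst2, which is in this list, is itself an interferon target. The general leukocyte list had 4 of 5 markers higher in WT-DES, against 28.9% of all tested genes. Without Cd52 it summed to 177.0, 274.0, 251.3 and 153.5 in WT-DES samples 1 to 4, with sample 2 highest and sample 4 lowest. In the other groups it summed to 27.7 to 42.1 (WT-veh), 22.2 to 29.1 (αERKO-veh) and 18.6 to 26.2 (αERKO-DES). Cd52, singled out after its values were seen, is also made by male tract epithelium and was lower in WT-DES (452 ± 121 against 2919 ± 78.0). The part of these cells in the ISG levels was not tested.

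Other cell type lists also moved. Of all tested genes, 28.9% were called higher and 23.9% lower in WT-DES, and 1.49% in either direction in αERKO SV after DES. Epithelial markers were lower in WT-DES (4 of 5 called, sums 683.4 to 987.8 against 1318 to 1446 in WT-veh), while 6 of 6 fibroblast (1916 to 2091 against 730.8 to 881.2) and 4 of 4 endothelial markers (90.3 to 144.6 against 40.6 to 49.1) were higher. In αERKO SV these lists summed to 1035 to 1298 (vehicle) and 1242 to 1677 (DES) for epithelium, 598.5 to 980.0 and 495.8 to 593.7 for fibroblasts, and 48.3 to 85.6 and 46.5 to 53.7 for endothelium. Smooth muscle markers were lower in WT-DES in 4 of 5, and WT-DES sample 1, which had the lowest level of 7 members, held a sum of 2938, near the 2580 to 3136 of WT-veh, the 1913 to 2586 of αERKO-veh and the 2280 to 2886 of αERKO-DES. Skeletal muscle markers summed to 568.1 to 1603 (WT-veh) and 35.7 to 327.4 (WT-DES), with 2 of 6 called lower, and to 581.0 to 1854 (αERKO-veh) and 477.8 to 677.7 (αERKO-DES), with 4 of 6 called lower. Adipose markers summed to 127.4 to 618.3 (WT-veh) and 533.9 to 1304 (WT-DES), with 3 of 5 called higher, and to 33.1 to 617.2 (αERKO-veh) and 2.40 to 26.3 (αERKO-DES), with 4 of 5 called lower. The part of these tissues in the ISG levels was not tested either.

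**Figure D3:**
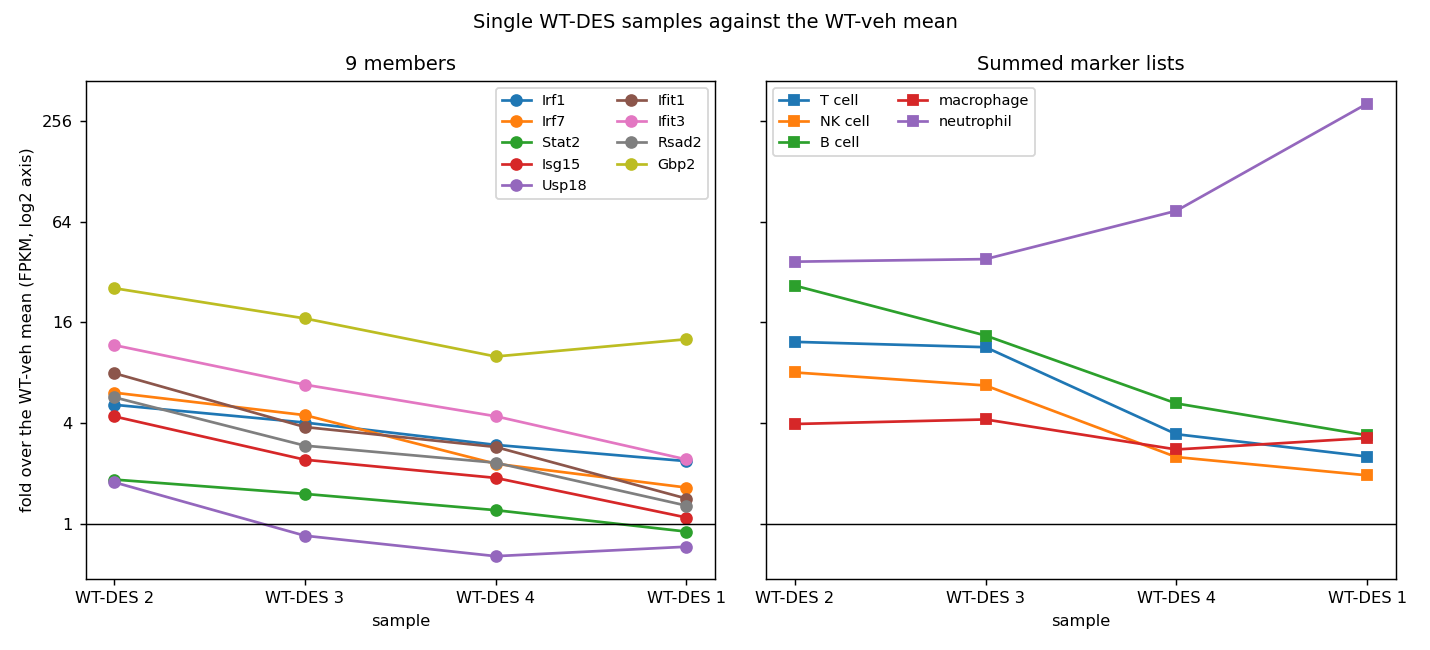
Fold of each WT-DES sample over the WT-veh mean (y axis, log2 scale), for the 9 members (left) and for summed immune marker lists (right), with samples in the order 2, 3, 4, 1. The T, NK and B cell lists fall from sample 2 to sample 1 as 7 of the members do, whereas the neutrophil list is highest in sample 1.

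The rest of the interferon pathway was read from a list of 114 other genes, of which 102 were tested. Of these, 10 exceeded 1 FPKM in the mean of WT-DES only (Cd274, Ciita, Cxcl11, Gbp11, Gbp2b, Gbp8, Ido1, Ifng, Irf4 and Oas3). Such genes enter the test because they are high in WT-DES, so they had to differ there, and they were too low in the other groups to be called between those. They are left out of the counts below. All 9 members exceeded 1 FPKM in each of the 4 groups. In WT-DES against WT-veh, 63 of the other 92 pathway genes were higher, 4 lower and 25 not called, where 23.5% of all 14693 genes that passed without WT-DES were higher and 26% lower. In αERKO-DES against αERKO-veh 0 of 92 was called by limma (1.63% of the 14693 genes), 10 had an unadjusted p of 0.05 or less (26.7% of those genes), and the median log2 difference was −0.03. The interaction was called higher in WT for 57 of the 92 genes and lower for 4, among them Irf3, Isg20 and Cish, against 24.7% and 29.2% of the 14693 genes. In αERKO-veh against WT-veh, 1 gene of 92 was called, Cish, which was lower (7.75% of the 14693 genes were called). In αERKO-DES against WT-veh, 4 of 92 were lower (Irf5, Ifi204, Ifi27l2a and Psmb8), where 3.46% of the 14693 genes were called. In αERKO-DES against WT-DES 59 of the 92 were lower and 5 higher (among them Irf3, Isg20, Ptpn11 and Cish), against 24% and 25.8% of the 14693 genes. Genes in these short lists were named after their values were seen.

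Among the ligands, Ifng was the only 1 of 12 listed genes to pass the FPKM minimum. It was at 0.05, 0.09, 0.04 and 0.04 FPKM in WT-veh and at 0.39, 4.18, 3 and 0.86 in WT-DES, again with sample 2 highest and sample 1 lowest, and at 0.05 or less in all αERKO samples. It passed the minimum through WT-DES alone and so had to differ, and no test is given for it. Ifna1, Ifna2, Ifna4, Ifna5, Ifna12, Ifnab and Ifnl3 were listed at 0 in all 16 samples. Ifnb1 was listed at 0 except for 0.06 in WT-DES sample 2, and Ifnl2 except for 0.09 in that same sample. Ifne and Ifnk did not exceed 0.31 FPKM in any sample.

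Beside the role counts here and below stand the shares over the 14693 genes, 23.5% higher and 26% lower in WT-DES. A role count near these shares is no result about the role. Of 6 receptor subunits, 3 were higher. Ifngr1 rose 1.52-fold (70.0 ± 7.87 against 46.0 ± 2.18 FPKM, SD, n = 4, adjusted p = 1.13e-05), and Ifnar2 was at a ratio of 1.32 and not called. The partner chains, named after their values were seen, went the other way. Ifnar1 rose 1.65-fold (adjusted p = 6.96e-07) and Ifngr2 was at a ratio of 1.04 and not called, so 1 chain of each receptor was called. Of the kinases, STATs and Irf9, 3 of 6 were higher. Jak1 (ratio 1.16) and Irf9, the DNA-binding partner of Stat2 (ratio 1.08, adjusted p = 0.73), were not called.

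Other interferon regulatory factors went both ways, with 2 of 5 higher and 2 lower, leaving out Irf4, against 23.5% and 26% of the 14693 genes. Among the lower ones was Irf3, the constitutive factor activated by nucleic acid sensors (36.8 ± 0.507 against 75.0 ± 3.39, lower by 2.04-fold, adjusted p = 2.49e-08). Of 12 genes of nucleic acid sensing, 9 were higher. The adaptor Mavs and the kinase Tbk1, the most abundant ones by mean FPKM over all 16 samples, were at ratios of 0.79 and 0.83 and not called. That rank did not hold within WT-DES. There Zbp1 (37.7) and Tmem173 (33.2), both called higher and named after their values were seen, exceeded Mavs (24.1) and Tbk1 (20.1).

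Antiviral effectors outside the members and Oas3 were higher in 20 of 29 and lower in 1, which was Isg20, an exonuclease gene named after its values were seen (log2 −1.26, adjusted p = 2.39e-06). The most abundant effectors by the same measure, Ly6e (ratio 0.91) and the membrane protein gene Ifitm3 (ratio 1.39), were not called. Genes that conjugate Isg15 were higher in 3 of 4, including its activating enzyme Uba7 (1.83-fold, adjusted p = 0.00108), while the ligase Trim25 (ratio 1.46) missed the fold threshold.

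Interferon GTPases, the family to which Gbp2 belongs, were higher in 14 of 14, leaving out Gbp2b, Gbp8 and Gbp11, which passed the minimum only through WT-DES. Tgtp1 rose 25.9-fold (132 ± 70.6 against 5.11 ± 1.90, adjusted p = 1.04e-08) and Irgm1, a regulator of autophagy, 2.37-fold (adjusted p = 0.000482). Both were named for their mean over all 16 samples, in which Tgtp1 ranks high through its WT-DES level. Igtp (5.85-fold) and Irgm2 (7.39-fold), named after their values were seen, had higher WT-veh means (12.2 and 5.97) than Tgtp1. Several of these genes have near-identical copies, Tgtp1 and Tgtp2 among them, so single values are uncertain. Interferon-γ targets were higher in 6 of 8, leaving out Ciita, Cxcl11, Cd274 and Ido1, which also passed the minimum only through WT-DES. Among the 6 were the immunoproteasome subunits Psmb8 (3.45-fold, adjusted p = 7.05e-07) and Psmb9 (3.62-fold, adjusted p = 4.7e-06), highest by the mean over all 16 samples. In WT-veh Parp9, named after its values were seen, was higher than both (39.1 against 33.1 and 26.2) and was not called (ratio 0.90, adjusted p = 0.384). Of 8 negative regulators, 3 were higher and 1 lower, against 23.5% and 26% of the 14693 genes. Cish, a STAT5-induced inhibitor of cytokine signalling, was lower by 2.35-fold (adjusted p = 1.58e-08), and the phosphatase Ptpn11 was at a ratio of 0.72 and not called.

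**Figure D4:**
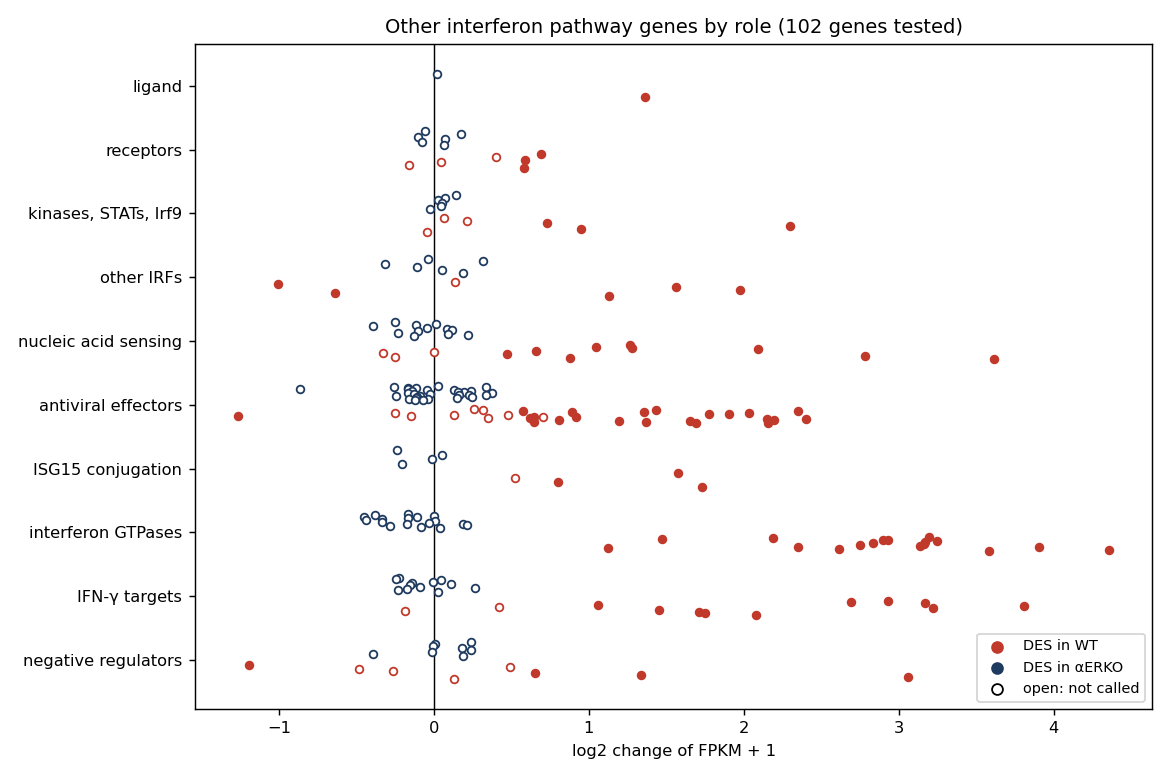
Log2 change of FPKM + 1 (x axis) after DES for the 102 tested pathway genes outside the members, by role (rows), in WT (red) and αERKO (blue), filled where called. The 14 interferon GTPases that passed the FPKM minimum without WT-DES are called higher in WT. The other IRFs lie on both sides of 0. Of the 102 genes, 10 passed the minimum through WT-DES alone, had to differ in WT and were too low to be called in αERKO. No gene is called in αERKO.

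The pathway genes shared the sample order of the members. Leaving out those that passed the minimum only through WT-DES, WT-DES sample 2 was highest for 75 of 92 genes (81.5%), and 58 (63%) had the order 2, 3, 4, 1, against 20.8% and 7.74% of the 14693 genes that passed without WT-DES. Over all 16 samples, the tested genes most like the mean of the members' standardised log2(FPKM + 1) included Olfr56 (Pearson r = 0.985), the cytokine subunit gene Il12b (0.983), the chemokine gene Cxcl11 (0.982) and Ifng (0.978). Each was near 0 outside WT-DES, with group means of 0.12 or less, and so was tested only because of its level in WT-DES. Olfr56, an olfactory receptor gene, overlaps the interferon GTPase gene Ifi47 on the same strand in GENCODE M21, so its reads may not be separable from those of Ifi47. These r values are descriptions over samples that share the group difference.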

How the data were processed

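RNA-seq libraries of 16 SV samples were sequenced by the authors on an Illumina HiSeq as paired-end reads of 126 nt. By the methods and the submitters' processing notes, reads with an average quality above 20 were aligned to mm10 with TopHat 2.0.4 and FPKM per gene were computed by the authors with Cufflinks 2.0.2. The gene annotation, the use of strand and any further scaling between samples are not given in the sources used here. The depth per sample cannot be read from the deposited FPKM, so precision rests on the spread between samples. All 16 columns were matched to samples by their titles, and 0 columns were left unmapped.

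From these values, log2(FPKM + 1) was fitted in R 4.3.3 with limma 3.58.1, with a mean for each group over all 16 samples and moderated variances that follow the mean expression (eBayes). P-values were adjusted by Benjamini-Hochberg across the 15988 genes whose mean exceeded 1 FPKM in some group. The thresholds (adjusted p of at most 0.05, 1.5-fold, mean FPKM above 1) follow those of the study, which used a count-based tool that cannot be run on FPKM. The interaction needed the same adjusted p and log2 changes that differ by 1.5-fold. The fit was tested on simulated data with known changes. The members and lists were chosen with earlier results of these data known. Named besides the members were the 2 tested genes of each pathway role with the highest mean FPKM over all 16 samples. That mean includes WT-DES and so favours genes that are high there. Also named were Esr1, marker genes of reported lists, and the 5 genes most correlated with the members' mean. The 5 most correlated after subtracting group means were computed too, and of these Olfr56, Cxcl11 and I830012O16Rik are named. Genes named outside this rule are said to be so. A few genes that the rule would name are not reported here. No set test or resampling was run. Marker lists (T, NK and B cells, macrophages, neutrophils, plasmacytoid dendritic cells, leukocytes, epithelium, SV secretion, fibroblasts, endothelium, smooth muscle, skeletal muscle, adipose) were summed as FPKM per sample.

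Promoter windows came from RefSeq on GRCm38.p6 and gene positions from GENCODE M21 on GRCm38, the same build as mm10. Alternatives were a pseudocount of 0.1, no minimum and a minimum of 5 on mean FPKM, a fit restricted to the pair of groups in question, variances without a trend, weights per sample, the replicate number as a block, median-ratio scaling, quantile normalization, equal totals without the 20 most abundant genes, a length correction, a stricter adjusted p (0.01), and 16 fits that each lack 1 sample.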

Additional observations from a re-analysis of the deposited data

Results flagged for a closer look

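The change with DES differed between WT and αERKO SV, by the limma interaction term, for 7 members. The difference of the log2 changes was 3.93 for Gbp2, 2.35 for Ifit3, 1.91 for Irf1, 1.64 for Irf7, 1.61 for Ifit1, 1.38 for Rsad2 and 1.13 for Isg15, each higher in WT. Of all tested genes, 29.6% were called higher in WT by this term and 26.9% lower. The call of Isg15 was lost in 9 of the 16 fits without 1 sample and with the replicate number as a block. In none of the 36 sets of 4 samples (9 members in 4 groups) did a sample stand apart by Dixon's test, where chance alone flags about 1 set in 20.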

How the results depend on the processing

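Over 28 alternatives (27 for the interaction), the members called numbered 7 to 8 in WT-DES against WT-veh and in αERKO-DES against WT-DES, 6 to 8 in the interaction and 0 in the other comparisons, and the pathway genes called higher in WT-DES, those that passed the minimum only through WT-DES included, numbered 63 to 84 (73 in the fit of the report). Of 1503 recomputed member values, 41 changed sign, none of them called. With quantile normalization these were Gbp2 in αERKO-veh against WT-veh (−0.026), Ifit1 (0.12) and Ifit3 (0.038) in αERKO-DES against αERKO-veh and Rsad2 in αERKO-DES against WT-veh (0.029). With sample weights they were Ifit3 in αERKO-DES against αERKO-veh (0.027), Irf1 (0.013) and Usp18 (−0.065) in αERKO-veh against WT-veh and Rsad2 in αERKO-DES against WT-veh (0.052). With equal totals without the 20 most abundant genes they were Irf1 in αERKO-veh against WT-veh (0.086), Stat2 in αERKO-DES against αERKO-veh (−0.0098), and Usp18 in WT-DES against WT-veh (0.30) and in the interaction (0.030). With the length correction they were Irf1 (0.031) and Isg15 (0.013) in αERKO-veh against WT-veh and Irf7 in αERKO-DES against αERKO-veh (0.0070). Leaving out 1 sample at a time gave ranges of −0.055 to 0.10 for Gbp2, −0.038 to 0.18 for Ifit3, −0.077 to 0.10 for Irf7 and −0.049 to 0.066 for Usp18 in αERKO-veh against WT-veh, of −0.13 to 0.043 for Ifit1, −0.12 to 0.0069 for Ifit3, −0.14 to 0.087 for Irf7 and −0.21 to 0.086 for Isg15 in αERKO-DES against αERKO-veh, of −0.093 to 0.12 for Ifit3 and −0.11 to 0.12 for Irf7 in αERKO-DES against WT-veh, and of −0.42 to 0.049 for Usp18 in WT-DES against WT-veh. The cause was not tested. Samples of the same number did not deviate together (24 pairs, r −0.21 to 0.28, 3 above 0.1), so the numbers do not pair them. With the number as a replicate block, 7 members were called in WT-DES against WT-veh and 6 in the interaction, where Isg15 was lost (adjusted p = 0.0543). Isg15 was also lost in the interaction at an adjusted p of at most 0.01. The unknown depth limits what FPKM of low genes such as Ifng and Rsad2 can show.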
